A study of Nematostella vectensis with 15 samples.

Results

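Pairs of genes that lie over each other on opposite strands were described in *Nematostella vectensis*, the starlet sea anemone. A pair was taken from the deposited gene models wherever the start-to-end span of a model shared at least 1 bp with a model on the other strand of the same scaffold. This gave 1129 pairs formed by 2021 of the 27527 gene models (7.34%), on 352 of the 4660 scaffolds that carry a model. The expression data were 15 RNA-seq libraries of polyadenylated RNA, made with a stranded kit, from the mesenteric body portion of adult female polyps. The polyps were acclimated F1 offspring of CH2XCH6 and were kept at 16‰ salinity at 15, 20, or 25 °C, with 5 libraries for each temperature and 3526175 to 22160961 counts in a library. The labels do not say whether the 5 libraries of a temperature came from separate animals or cultures, so p-values measure the spread between these libraries only. No group differed in anything but temperature as far as the labels go. Depth differed, with 3526175 to 9619520 counts at 15 °C (median 7727786), below the medians of 14234219 at 20 °C and 11095025 at 25 °C. Comparisons with 15 °C are therefore also comparisons with libraries of lower median depth, and the effect of depth was not tested. The gene models carry identifiers and no gene names, so the labelled tissue could not be checked against its markers and no function is given for any gene here.

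Genes on opposite strands can meet in 3 ways. In a tail-to-tail pair the genes are transcribed toward each other and overlap at their 3′ ends, commonly in untranslated regions (UTRs). In a head-to-head pair they are transcribed away from each other from overlapping 5′ ends, where the promoters lie close together. A nested gene lies wholly inside the span of a host gene, often within an intron. Transcripts of such pairs can be complementary to each other, and transcription of one gene can pass through the other. The models here come from 2 sources. JGI models are those of the first annotation of the genome, and TACO models (identifiers starting with TU) were assembled from RNA-seq reads, so that a TACO model exists because its transcript was seen.

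Whether reads had been counted by strand decided if the levels of the 2 genes of a pair could be told apart. For 92 genes, every exon base lay inside exons of the partner on the other strand. The study's methods name featureCounts with its default settings, which ignore strand and leave out a read that touches more than 1 gene. Under these settings every read of the 92 genes would touch the partner as well, and their counts would be 0. If such a read were instead counted for both genes, the partner would have at least as many counts as the gene inside it. Of the 92 genes, 87 had counts, and 6 had a higher mean count than the partner that contains them, 3 of them in all 15 libraries. NEMVEDRAFT_v1g246818, with its 3 exons inside exons of TU31256, had a mean of 12475 counts per library, against 151.6 counts for the partner. NEMVEDRAFT_v1g237405 had 3842 counts, against 337 for TU28165. In the other direction, 13 of the 86 contained genes whose partner averaged at least 100 counts had a level per length under 1% of the partner's. Of these 86 genes, 21 were under 5%, and the median was 52.7% of the partner's level per length. Whether part of the counts of such a gene came from reads of its partner was not tested. NEMVEDRAFT_v1g205756 had 0 counts in all libraries inside TU66126, which averaged 1633 counts, and NEMVEDRAFT_v1g239494 had 0 counts inside TU13852, which averaged 1039 counts. A count of 0 allows up to 3 counts in a library, from counting error only. These counts differ from those that the named default settings would give, and how strand was handled for the deposited table is known only from such values. The counts of the 2 genes of a pair were read as separate on this basis, and for pairs outside the 92 genes this was not tested.

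**Figure D1:**
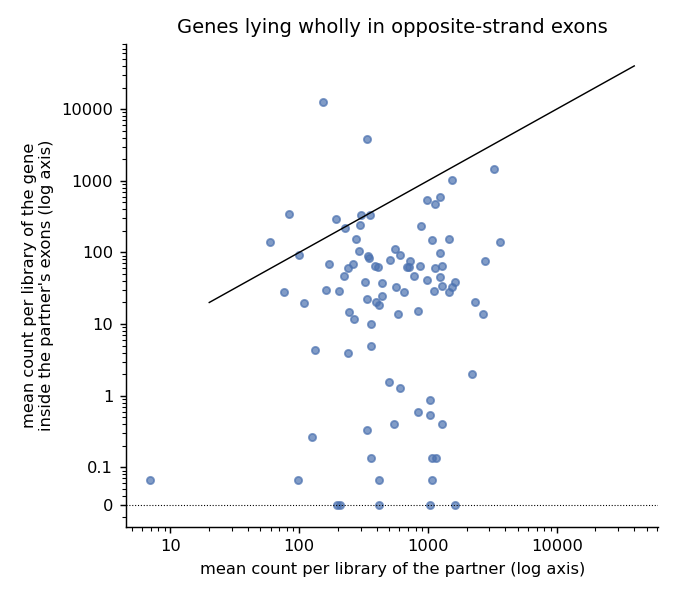
Mean count per library of the 92 genes whose exon bases all lie in exons of a gene on the opposite strand (vertical log axis) against the mean count of that partner (horizontal log axis). Each point is 1 gene, the line marks equal counts, and the 5 genes with no counts are drawn on the dotted line; 6 genes lie above the line of equal counts, and others lie far below it next to partners with over 1000 counts.

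The 1129 pairs comprised 427 tail-to-tail, 178 head-to-head, and 524 nested pairs. The span shared by a pair ran from 1 to 21497 bp, with a median of 645 bp. Exon bases were shared in 722 pairs, with a median of 275 bp and a maximum of 3922 bp, and bases coding on both strands in 60 pairs. In tail-to-tail pairs, 412 of 427 shared exon bases, and in 246 a 3′ UTR lay over a 3′ UTR. In head-to-head pairs, 157 of 178 shared exon bases, and in 82 a 5′ UTR lay over a 5′ UTR. Nested pairs differed in this respect, with 371 of 524 sharing no exon base. TACO models made up 1078 of the 2021 genes, which is 15.1% of all TACO models, and JGI models the other 943, which is 4.63% of all JGI models. A JGI model faced a TACO model in 837 pairs, both were TACO models in 233, and both were JGI models in 59. All 404 hosts of nested genes were TACO models, with a median of 16 exons, while 477 of the 521 nested genes were JGI models. Most genes, 1841, had 1 partner, and 180 had several. TU52902 on scaffold 428, named here for its count of partners, hosted 6 nested genes, of which 2 passed the filter on low counts. At the limit of the definition, 28 pairs shared 1 to 10 bp, while 37 pairs of opposite-strand neighbours lay 0 to 10 bp apart without overlap. Just inside it, NEMVEDRAFT_v1g243525 and TU78551 shared 1 bp and had 5.41 and 22.3 RPKM. Just outside it, TU1260 and TU1119 had 0 bp between them and 26.8 and 3.73 RPKM.

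Levels are given as RPKM, the count scaled to exon length in kb and to the library total, averaged over the 15 libraries. The 2021 genes had a median of 5.27 RPKM, against 3.501 RPKM over all 27527 gene models, and 151 had no count in any library. The 2 sets differ in make-up, with TACO models being 1078 of the 2021 genes and 7151 of the 27527. These medians were not split by source of model. The median was 7.44 RPKM in the 852 genes of tail-to-tail pairs, 7.67 RPKM in the 356 genes of head-to-head pairs, and 6.12 RPKM in the 404 hosts. Nested genes were far lower. The 153 nested genes that shared exon bases with their host had a median of 1.55 RPKM, and the 368 that shared none had a median of 0.0484 RPKM. Of these 368 genes, 109 had no counts and 83 (22.6%) passed the filter on low counts, against 17818 (64.7%) of all gene models. A nested gene without a shared exon base therefore tended to be a short JGI model, with a median of 600 exon bp, at or near 0 in these libraries.

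**Figure D2:**
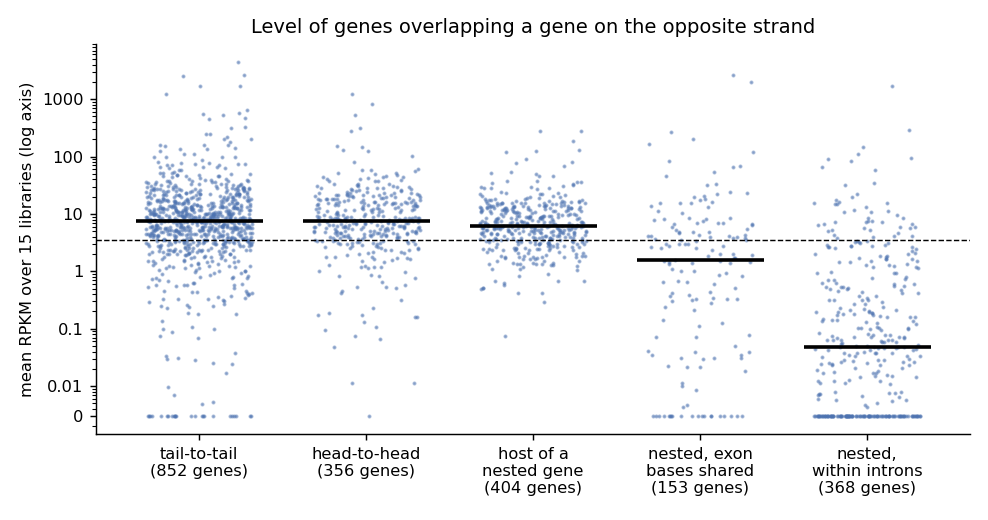
Mean RPKM over 15 libraries (log axis) of each gene, by its place in a pair. Points are genes, thick lines are medians (7.44, 7.67, 6.12, 1.55, and 0.0484 RPKM from left to right), the dashed line is the median of all gene models (3.501 RPKM), and genes without counts are drawn at 0. Genes nested without a shared exon base, labelled as within introns, sit lowest.

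The level difference of a pair was taken as the absolute difference of the mean log2(RPKM + 0.1) of its genes. It is given for the 702 pairs in which both genes passed the filter. In another 404 pairs 1 gene passed and in 23 neither did, so the 702 are not all pairs. The median difference was 1.55 on the log2 scale. Neighbouring genes that do not overlap had medians of 1.59 (6189 pairs on opposite strands) and 1.39 (5584 pairs on the same strand), and these differences between kinds of pair were not tested. Over all pairs, with genes of few or no counts included, the median was 2.61 in the 1129 overlapping pairs, 2.24 in 10481 pairs of neighbours on opposite strands, and 1.88 in 10035 on the same strand. The order of overlapping pairs and opposite-strand neighbours therefore turned with the filter. The 2 levels were less than 2-fold apart in 238 of the 702 pairs (33.9%) and over 10-fold apart in 115 (16.4%). The order of the genes was stable, since the same gene was higher in all 15 libraries in 543 pairs (77.4%). Among mixed pairs with both genes past the filter, neither source of model was higher throughout, with the TACO model above the JGI model in 210 of 451. These 451 are part of 837 mixed pairs. The median level difference was 1.63 in the 451 and 3.41 in the 837, where the higher source was not counted. The nested gene was above its host in 71 of the 174 tested nested pairs (40.8%), with a median log2 difference of -0.49. Over all 524 nested pairs, which include the many nested genes at or near 0, it was above its host in 73 (13.9%), with a median log2 difference of -4.45.

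The largest difference among pairs with at least 10 counts in every library was that of NEMVEDRAFT_v1g246818 and its host TU31256 (scaffold 244, TU31256 at 79582-119455 on the - strand and NEMVEDRAFT_v1g246818 at 114406-119019 on the + strand). NEMVEDRAFT_v1g246818 averaged 2589.8 ± 489.7 RPKM (SD, n = 15), with 1758 to 3504 RPKM over the libraries, and TU31256 averaged 1.81 ± 0.303 RPKM, with 1.31 to 2.38 RPKM. The levels of the 2 genes were 10.39 apart on the log2 scale, although all 417 exon bp of the nested gene lie in exons of the host. The next was the head-to-head pair of NEMVEDRAFT_v1g12130 and TU2151, which overlap by 488 bp and share no exon base. NEMVEDRAFT_v1g12130 averaged 315 ± 28.2 RPKM and TU2151 averaged 0.458 ± 0.0904 RPKM, a difference of 9.15. NEMVEDRAFT_v1g188999, which lies in TU9721 without a shared exon base, averaged 1672 ± 367 RPKM, against 6.07 ± 0.604 RPKM for its host. In each of these 3 pairs the JGI model was the higher gene, and no gene of the 3 was called between 25 and 15 °C by the test given below, with adjusted p from 0.110 to 0.878.

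Some pairs combined high levels of both genes. TU24153 and the gene nested in it, TU23955, averaged 275 ± 174 RPKM and 147 ± 65.3 RPKM. The tail-to-tail pair TU68929 and TU69050, which share 46 bp of 3′ UTR, averaged 66.0 ± 19.8 RPKM and 465 ± 125 RPKM. TU3585 averaged 121 ± 17.6 RPKM, and NEMVEDRAFT_v1g209643, which lies within it over 21497 bp, averaged 64.6 ± 17.2 RPKM. These 3 pairs had the highest level of the lower gene.

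Among the 4 contained genes with the highest level per length, 1 was called between 25 and 15 °C. NEMVEDRAFT_v1g81762, a JGI model with 1 exon of 480 bp inside exons of TU49820 (scaffold 4), was at 276, 179.7, 193, 187, and 208 RPKM at 15 °C, 52.0, 123, 101, 71.9, and 77.8 at 20 °C, and 22.0, 100.4, 99.1, 64.8, and 56.8 at 25 °C. TU49820 was at 18.0, 16.3, 14.8, 14.2, and 16.4 RPKM at 15 °C, 17.1, 16.2, 14.3, 15.1, and 15.2 at 20 °C, and 13.8, 15.8, 16.4, 16.2, and 15.5 at 25 °C. All 5 libraries at 25 °C and all 5 at 20 °C were below all 5 at 15 °C for NEMVEDRAFT_v1g81762, while the ranges of TU49820 overlapped at all temperatures. The log2 fold change between 25 and 15 °C was -1.70 ± 0.35 (SE, adjusted p = 0.00237) for NEMVEDRAFT_v1g81762 and -0.12 ± 0.08 (SE, adjusted p = 0.242) for TU49820, and the ratio of TU49820 to NEMVEDRAFT_v1g81762 changed by 1.72 ± 0.31 (SE, adjusted p = 0.000398). NEMVEDRAFT_v1g236459, inside TU8761, averaged 82.1 ± 9.95 RPKM, with a fold change of 0.15 ± 0.10 (SE, adjusted p = 0.254), and NEMVEDRAFT_v1g237405, inside TU28165, averaged 262 ± 18.9 RPKM, with -0.04 ± 0.12 (SE, adjusted p = 0.84).

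Culture temperature was compared with edgeR over all genes, and a gene was called at a Benjamini-Hochberg adjusted p under 0.05. Between 25 and 15 °C, 545 of the 1576 members of pairs that passed the filter were called (34.6%), 252 higher and 293 lower at 25 °C. Over all 17818 genes tested, 31.7% were called, 15% higher and 16.7% lower. Between 20 and 15 °C, 315 members were called (20.0%), beside 18.8% of all genes. Of the members, 144 were higher (9.14%, beside 9.66% of all genes) and 171 lower (10.9%, beside 9.11% of all genes). Between 25 and 20 °C, 52 were called (3.30%), beside 3.68% of all genes, and this count fell to 32 without 20 °C replicate 4, 33 without 25 °C replicate 2, and 28 without 25 °C replicate 5. The shares of members were near those of all genes in the 3 comparisons. Member genes took 9.04% ± 0.24 of the counts of a library at 15 °C, 9.51% ± 0.22 at 20 °C, and 9.69% ± 0.12 at 25 °C (SD, n = 5 each).

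Of the 702 pairs, 88 had both genes called between 25 and 15 °C. The genes moved together in 39 of them, 18 higher and 21 lower at 25 °C, and in opposite directions in 49. These are 5.56% and 6.98% of the pairs. Over all 12797 overlapping and neighbouring pairs tested, the shares were 7.99% together and 4.42% in opposite directions. In another 299 pairs only 1 gene was called, and in 315 neither. The count together was 25 without 25 °C replicate 1, and the count in opposite directions was 32 without 15 °C replicate 5. From sequencing run L2 alone, with fewer counts, they were 23 and 24. Whether one direction was more frequent than the other was not tested.

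The counts of other kinds of pair are given beside these as a description, since gene pairs are not replicates. Among overlapping pairs on opposite strands, 20 of 366 tail-to-tail pairs were called together (5.46%) and 24 in opposite directions (6.56%). The counts were 10 (6.17%) and 11 (6.79%) of 162 head-to-head pairs and 9 (5.17%) and 14 (8.05%) of 174 nested pairs. Of 589 pairs sharing exon bases, 33 were together (5.603%) and 35 in opposite directions (5.94%), and of 113 sharing none, 6 (5.31%) and 14 (12.4%). By source of the models, 27 of 451 pairs of a JGI and a TACO model were called together (5.99%), 17 higher and 10 lower at 25 °C, and 30 in opposite directions (6.65%). Of 208 pairs of TACO models, 11 were together (5.29%), 0 higher and 11 lower, and 16 in opposite directions (7.69%). Of 43 pairs of JGI models, 1 was together and higher (2.33%), and 3 were in opposite directions (6.98%). The split by direction was not tested. Neighbours on opposite strands that do not overlap had 380 of 6189 pairs called together (6.14%) and 284 in opposite directions (4.59%). Head-to-head neighbours within 1 kb had 89 (6.12%) and 41 (2.82%) of 1455 pairs. Tail-to-tail neighbours within 1 kb had 34 (4.29%) and 48 (6.06%) of 792 pairs, so more opposite than joint calls also occurred without overlap. Neighbours on the same strand had 539 (9.65%) and 220 (3.94%) of 5584 pairs, and models overlapping on the same strand 64 (19.9%) and 13 (4.04%) of 322.

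**Figure D3:**
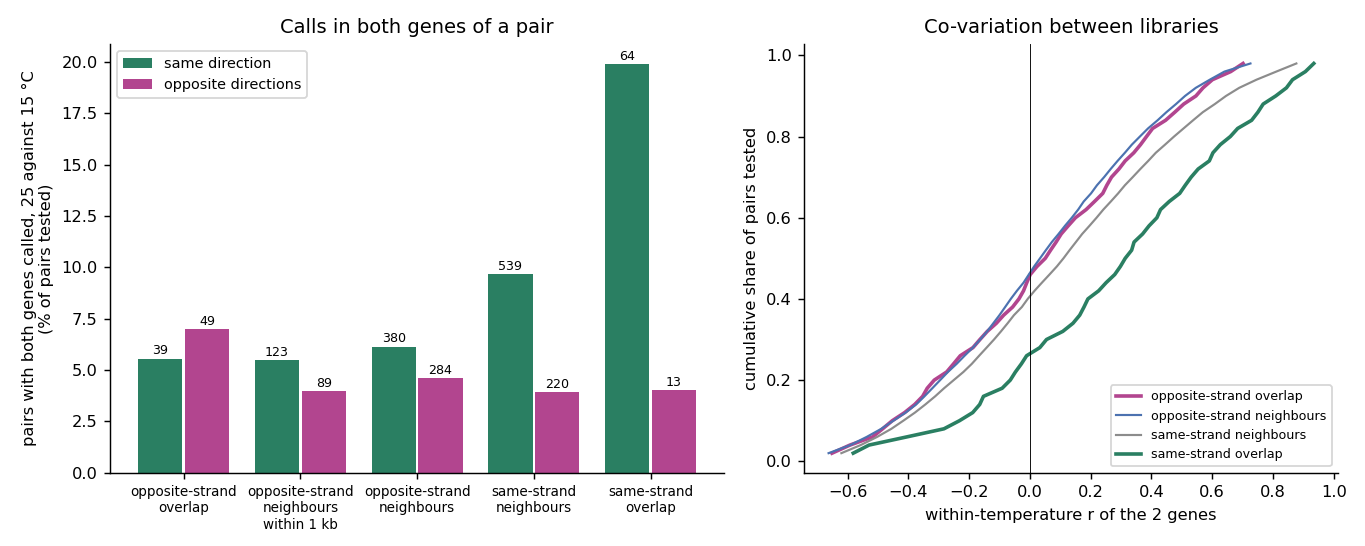
Left, percent of tested pairs with both genes called between 25 and 15 °C, in the same (green) or in opposite directions (purple), by kind of pair, with the number of pairs above each bar (39 and 49 for opposite-strand overlaps). Right, cumulative share of pairs by the within-temperature correlation of their genes; the curve of opposite-strand overlaps (median 0.05) runs beside that of opposite-strand neighbours (0.03), and that of same-strand overlaps (0.31) lies to the right.

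Between 20 and 15 °C, 22 pairs had both genes called together and 14 in opposite directions, 3.13% and 1.99% of the 702 pairs. Over all pairs the shares were 3.84% and 1.3%. Opposite-strand neighbours that do not overlap had 2.12% and 1.41%, and same-strand neighbours 5.34% and 1.09%. These differences between kinds of pair were not tested. The count of 14 was between 7 and 17 when a library was left out, with 7 without 15 °C replicate 3 or 20 °C replicate 2, 8 without 20 °C replicate 4, and 9 without 15 °C replicate 5 or 20 °C replicate 5. It was 6 in a fit of the 10 libraries compared. Between 25 and 20 °C, 1 of the 702 pairs was called together by edgeR (0.142%, beside 0.461% over all pairs and 0.259% of opposite-strand neighbours). In opposite directions there were 0, beside 0.0391% over all pairs and 0.0323% of opposite-strand neighbours. DESeq2 also called 1 and 0, and at an unadjusted p under 0.05 in both genes there were 11 and 3. The comparisons with 15 °C share its libraries and are not independent of each other.

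**Figure D4:**
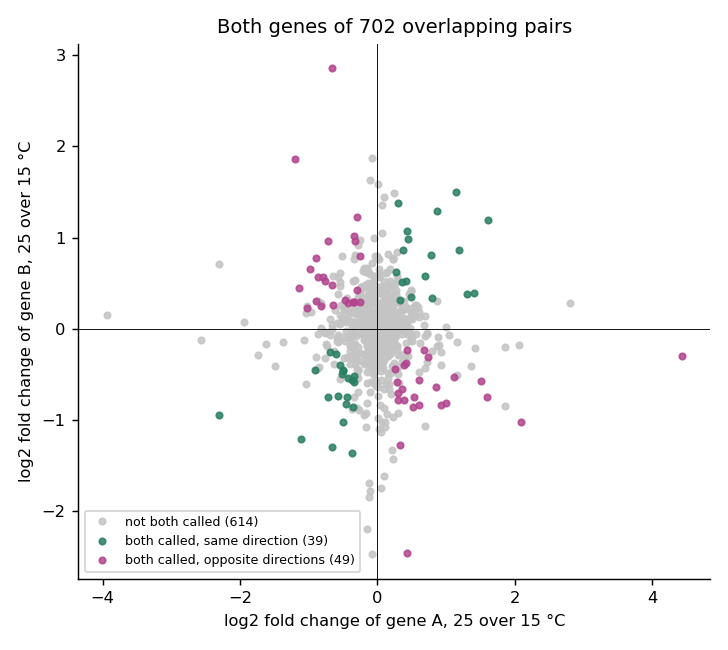
Log2 fold change between 25 and 15 °C of both genes of the 702 tested pairs, 1 point for each pair, with gene A on the horizontal and gene B on the vertical axis (gene A is the first of the pair's 2 names). Green marks the 39 pairs with both genes called in the same direction, purple the 49 called in opposite directions, and gray the other 614; the coloured points fall in all 4 quadrants.

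Among pairs called in opposite directions between 25 and 15 °C, TU34622 and TU34775 had the largest smaller change. They lie tail-to-tail (scaffold 269, TU34622 at 255605-273371 on the + strand and TU34775 at 271840-291874 on the - strand). They share 1532 exon bp, which is 66.6% of the exon bases of TU34775, and 1043 bp of these are 3′ UTR on both strands. TU34622 was at 3.06, 3.59, 2.25, 2.74, and 3.03 RPKM at 15 °C, 12.6, 15.6, 11.9, 14.7, and 11.9 at 20 °C, and 12.0, 15.5, 16.5, 10.7, and 11.7 at 25 °C. TU34775 was at 4.32, 2.49, 3.33, 3.21, and 2.87 RPKM at 15 °C, 3.91, 2.09, 1.31, 1.68, and 1.47 at 20 °C, and 1.18, 2.09, 2.02, 1.68, and 1.58 at 25 °C. All libraries of TU34622 at 20 and 25 °C were above all at 15 °C, and all libraries of TU34775 at 25 °C were below all at 15 °C. The log2 fold change between 25 and 15 °C was 2.09 ± 0.14 (SE, adjusted p = 3.46e-09) for TU34622 and -1.03 ± 0.25 (SE, adjusted p = 0.00483) for TU34775. At 15 °C the 2 genes were at similar levels, 2.93 ± 0.492 and 3.24 ± 0.684 RPKM (SD, n = 5 each), and at 25 °C at 13.3 ± 2.54 and 1.71 ± 0.370 RPKM.

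TU11300 and NEMVEDRAFT_v1g199361 lie head-to-head on scaffold 14, TU11300 at 1358019-1369799 on the - strand and NEMVEDRAFT_v1g199361 at 1369371-1372093 on the + strand, with 429 bp of shared span and no shared exon base. TU11300 was at 17.2, 14.4, 13.3, 9.83, and 14.9 RPKM at 15 °C, 6.30, 7.98, 9.19, 6.26, and 9.05 at 20 °C, and 5.93, 8.85, 9.93, 6.65, and 8.02 at 25 °C. NEMVEDRAFT_v1g199361 was at 3.61, 3.47, 2.27, 3.71, and 2.98 RPKM at 15 °C, 5.07, 5.37, 5.71, 5.32, and 4.21 at 20 °C, and 5.73, 6.35, 6.03, 5.13, and 6.60 at 25 °C. The 15 °C libraries of NEMVEDRAFT_v1g199361 were all below those at 20 and 25 °C. For TU11300 they were all above those at 20 °C, and 1 library at 25 °C was just above the lowest at 15 °C. The log2 fold changes between 25 and 15 °C were -0.90 ± 0.16 (SE, adjusted p = 0.000312) for TU11300 and 0.78 ± 0.13 (SE, adjusted p = 0.000198) for NEMVEDRAFT_v1g199361.

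NEMVEDRAFT_v1g213955 lies in TU21415 with no exon base shared (scaffold 188, TU21415 at 273410-300503 on the + strand and NEMVEDRAFT_v1g213955 at 293829-296326 on the - strand). The host TU21415 was at 11.3, 6.52, 10.2, 7.33, and 9.47 RPKM at 15 °C, 8.32, 5.67, 6.08, 7.78, and 6.79 at 20 °C, and 6.56, 4.17, 4.90, 5.79, and 7.12 at 25 °C. The nested NEMVEDRAFT_v1g213955 was at 27.5, 33.0, 41.1, 47.7, and 33.3 RPKM at 15 °C, 78.3, 62.7, 58.3, 65.2, and 56.5 at 20 °C, and 122, 51.1, 83.1, 67.3, and 53.8 at 25 °C. Every 25 °C library of NEMVEDRAFT_v1g213955 was above every 15 °C library, while the ranges of the host overlapped. These were log2 fold changes of -0.72 ± 0.15 (SE, adjusted p = 0.00132) for the host and 0.97 ± 0.24 (SE, adjusted p = 0.0068) for the nested gene. NEMVEDRAFT_v1g214367 lies in TU23102 without a shared exon base (scaffold 198, TU23102 at 171297-221744 on the - strand and NEMVEDRAFT_v1g214367 at 204060-211544 on the + strand). TU23102 was at 7.30, 8.61, 5.67, 4.31, and 7.13 RPKM at 15 °C, 9.75, 12.496, 11.8, 11.4, and 10.1 at 20 °C, and 12.52, 12.6, 14.4, 10.99, and 12.0 at 25 °C. NEMVEDRAFT_v1g214367 was at 6.36, 4.12, 6.60, 8.42, and 5.21 RPKM at 15 °C, 5.56, 2.34, 3.99, 2.76, and 4.72 at 20 °C, and 4.27, 3.71, 3.41, 4.07, and 5.42 at 25 °C. TU23102 was higher in every 25 °C library than in every 15 °C library, and the ranges of NEMVEDRAFT_v1g214367 overlapped. Between 25 and 15 °C, the fold changes on the log2 scale were 0.85 ± 0.13 (SE, adjusted p = 6.19e-05) and -0.64 ± 0.23 (SE, adjusted p = 0.0454). The call of NEMVEDRAFT_v1g214367 was lost without any 1 of 8 libraries (15 °C replicates 1, 3, and 4, 20 °C replicate 3, and 25 °C replicates 1, 2, 3, and 4).

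The last of these pairs, NEMVEDRAFT_v1g240047 and TU29295, lies tail-to-tail (scaffold 23, NEMVEDRAFT_v1g240047 at 1555061-1562037 on the + strand and TU29295 at 1561599-1565496 on the - strand) with 285 shared exon bp. NEMVEDRAFT_v1g240047 was at 6.22, 5.97, 6.15, 5.26, and 6.54 RPKM at 15 °C, 5.98, 8.66, 5.80, 6.65, and 6.20 at 20 °C, and 9.52, 10.02, 9.49, 9.38, and 9.99 at 25 °C. TU29295 was at 2.61, 2.95, 1.34, 1.93, and 2.24 RPKM at 15 °C, 1.45, 1.68, 1.78, 1.22, and 1.33 at 20 °C, and 1.21, 1.57, 1.67, 0.959, and 1.35 at 25 °C. NEMVEDRAFT_v1g240047 was higher in all 25 °C libraries than in any other library, and the ranges of TU29295 overlapped. On the log2 scale the genes changed by 0.61 ± 0.12 (SE, adjusted p = 0.000602) and -0.84 ± 0.19 (SE, adjusted p = 0.00205). Within each temperature, the libraries of 4 of the 5 pairs showed little relation between the genes, with r from -0.05 to 0.20, and r was -0.79 for TU23102 and NEMVEDRAFT_v1g214367 (permutation p = 0.00212, adjusted p = 0.0723).

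**Figure D5:**
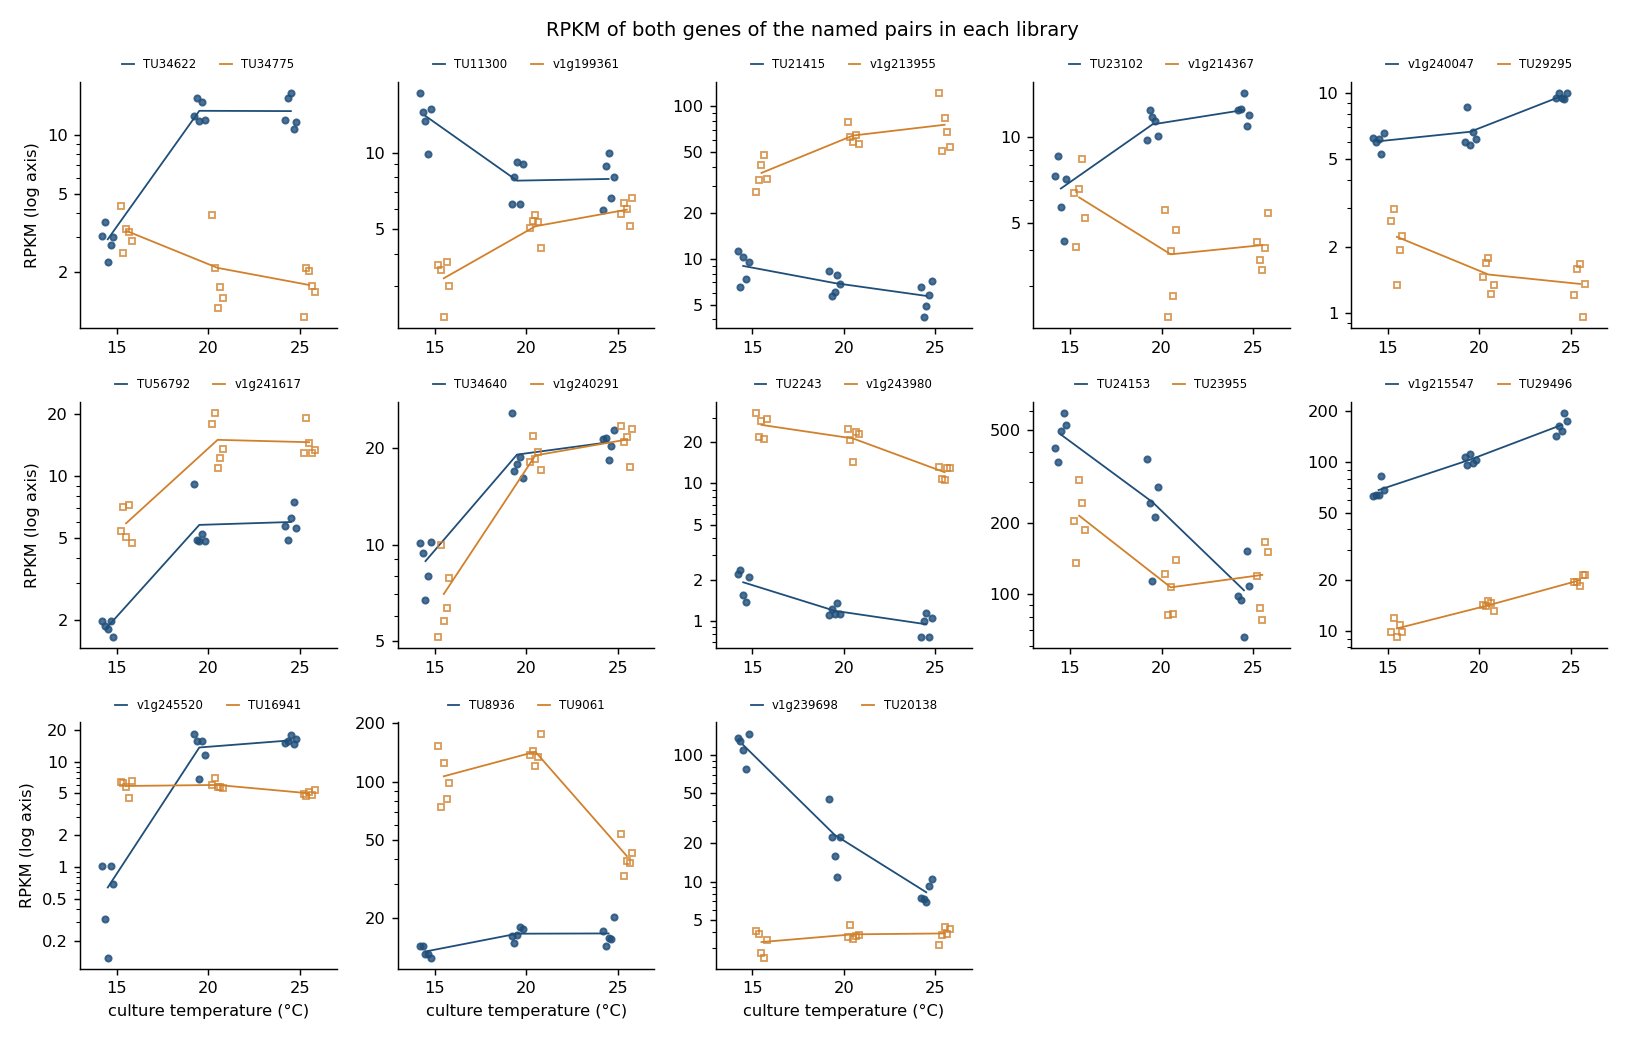
RPKM (log axis) of both genes in each of the 15 libraries at 15, 20, and 25 °C for the 5 pairs that moved in opposite directions (top row), the 5 that moved together (middle row), and the other 3 with a large change of ratio (bottom row). Each point is 1 library, lines join the means of 5 libraries, and the prefix NEMVEDRAFT_ of JGI identifiers is left out; NEMVEDRAFT_v1g245520 crosses its partner TU16941 above 15 °C.

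Among pairs called together, TU56792 and NEMVEDRAFT_v1g241617 rose at 25 °C relative to 15 °C. NEMVEDRAFT_v1g241617 lies in the intron of TU56792 (scaffold 48, TU56792 at 502296-514637 on the - strand and NEMVEDRAFT_v1g241617 at 503872-505138 on the + strand). TU56792 was at 1.96, 1.86, 1.80, 1.98, and 1.64 RPKM at 15 °C, 9.14, 4.89, 4.81, 5.25, and 4.86 at 20 °C, and 5.69, 4.89, 6.26, 7.49, and 5.56 at 25 °C. NEMVEDRAFT_v1g241617 was at 5.38, 7.09, 5.05, 7.20, and 4.74 RPKM at 15 °C, 18.0, 20.3, 11.03, 12.3, and 13.6 at 20 °C, and 13.0, 19.3, 14.5, 13.0, and 13.3 at 25 °C. All libraries at 20 and 25 °C were above all at 15 °C in both genes. The log2 fold changes between 25 and 15 °C were 1.61 ± 0.19 (SE, adjusted p = 5.85e-06) and 1.197 ± 0.19 (SE, adjusted p = 9.95e-05). TU34640 and NEMVEDRAFT_v1g240291 overlap head-to-head by 164 bp (scaffold 27, TU34640 at 64840-71919 on the - strand and NEMVEDRAFT_v1g240291 at 71756-75517 on the + strand), with 13 exon bp shared. TU34640 was at 10.1, 9.44, 6.70, 7.99, and 10.2 RPKM at 15 °C, 25.6, 16.9, 17.8, 18.7, and 16.1 at 20 °C, and 21.2, 21.5, 18.3, 20.3, and 22.6 at 25 °C. NEMVEDRAFT_v1g240291 was at 5.15, 9.94, 5.77, 6.34, and 7.89 RPKM at 15 °C, 18.0, 21.8, 18.4, 19.3, and 16.995 at 20 °C, and 23.3, 20.8, 21.6, 17.4, and 22.9 at 25 °C. Again no library at 15 °C reached those at 20 or 25 °C. The log2 fold changes were 1.14 ± 0.11 (SE, adjusted p = 3.06e-07) and 1.496 ± 0.15 (SE, adjusted p = 5.04e-07).

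NEMVEDRAFT_v1g215547 and TU29496 rose at each step. They lie tail-to-tail (scaffold 230, NEMVEDRAFT_v1g215547 at 308577-323551 on the + strand and TU29496 at 323461-363522 on the - strand) and share 74 exon bp. NEMVEDRAFT_v1g215547 was at 62.8, 63.8, 63.7, 82.7, and 68.8 RPKM at 15 °C, 108, 95.8, 111, 99.3, and 103 at 20 °C, and 143, 164, 153, 195, and 176 at 25 °C. TU29496 was at 9.94, 12.0, 9.20, 10.8, and 9.83 RPKM at 15 °C, 14.2, 14.1, 15.0, 14.6, and 13.1 at 20 °C, and 19.4, 19.5, 18.4, 21.4, and 21.4 at 25 °C. No range overlapped another in either gene. The log2 fold changes between 25 and 15 °C were 1.18 ± 0.12 (SE, adjusted p = 1.03e-06) and 0.86 ± 0.10 (SE, adjusted p = 2.06e-06), and this was the 1 pair called together between 25 and 20 °C, with 0.67 ± 0.12 (SE, adjusted p = 0.00324) and 0.48 ± 0.09 (SE, adjusted p = 0.00538).

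In the other 2 named pairs called together, both genes fell. NEMVEDRAFT_v1g243980, a JGI model with 1 exon of 1553 bp, lies inside exons of TU2243 (scaffold 103, TU2243 at 520116-542429 on the + strand and NEMVEDRAFT_v1g243980 at 540226-541778 on the - strand). TU2243 was at 2.19, 2.33, 1.55, 1.38, and 2.099 RPKM at 15 °C, 1.11, 1.22, 1.13, 1.34, and 1.12 at 20 °C, and 0.763, 1.003, 1.147, 0.769, and 1.05 at 25 °C. NEMVEDRAFT_v1g243980 was at 32.4, 21.9, 28.3, 21.2, and 29.4 RPKM at 15 °C, 24.7, 20.8, 14.2, 23.7, and 22.8 at 20 °C, and 13.1, 10.7, 10.52, 13.0, and 13.0 at 25 °C. All 25 °C libraries were below all 15 °C libraries in both genes. These were log2 fold changes of -1.11 ± 0.14 (SE, adjusted p = 1e-05) and -1.21 ± 0.13 (SE, adjusted p = 1.5e-06). TU23955 lies without a shared exon base in TU24153 (scaffold 20, TU24153 at 32321-109352 on the - strand and TU23955 at 55632-62195 on the + strand). TU24153 was at 418, 363, 492, 587, and 521 RPKM at 15 °C, 376, 242, 113, 212, and 285 at 20 °C, and 97.6, 94.5, 65.4, 152, and 108 at 25 °C. TU23955 was at 204, 135, 305, 244, and 187 RPKM at 15 °C, 122, 81.6, 107, 82.1, and 139.9 at 20 °C, and 119.7, 87.3, 77.4, 166, and 151 at 25 °C. TU24153 was lower in every 25 °C library than in every 15 °C library, and the ranges of TU23955 overlapped. Between 25 and 15 °C, the fold changes on the log2 scale were -2.30 ± 0.27 (SE, adjusted p = 1.22e-05) and -0.95 ± 0.26 (SE, adjusted p = 0.0111).

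The difference between the 2 genes of a pair was tested directly as a change of their ratio between temperatures. The test compared both genes within each library and was adjusted over all 12797 overlapping and neighbouring pairs. The ratio changed in 250 of the 702 pairs (35.6%) between 25 and 15 °C, beside 30.4% of all pairs. It changed in 146 (20.8%) between 20 and 15 °C, beside 18.5%, and in 20 (2.85%) between 25 and 20 °C, beside 3.77%. In opposite-strand neighbours that do not overlap, the shares in the 3 comparisons were 32.4%, 20.4%, and 3.44%. By layout, 137 of 366 tail-to-tail (37.4%), 55 of 162 head-to-head (34.0%), and 58 of 174 nested pairs (33.3%) had a changed ratio between 25 and 15 °C. Beside these stood 34.8% of tail-to-tail and 30.3% of head-to-head neighbours. The median absolute change between 25 and 15 °C in the 702 pairs was 0.40 on the log2 scale. It was 0.36 over all pairs and 0.39 in opposite-strand neighbours. From run L2 alone the counts were 148, 92, and 9. The count of 20 was 9 without 20 °C replicate 5, 13 without 25 °C replicate 3, and 9 without 25 °C replicate 5.

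All 5 named pairs that moved in opposite directions had a changed ratio between 25 and 15 °C, from 3.09 ± 0.27 (SE, adjusted p = 1.02e-07) for TU34622 over TU34775 to 1.45 ± 0.22 (SE, adjusted p = 5.04e-05) for NEMVEDRAFT_v1g240047 over TU29295, in log2 units. Of the 5 pairs that moved together, TU24153 over TU23955 changed its ratio, by -1.39 ± 0.24 (SE, adjusted p = 0.000197), with TU24153 the further below its 15 °C level. For the other 4 the change was not past the threshold. It was 0.41 ± 0.26 (SE, adjusted p = 0.237) for TU56792 over NEMVEDRAFT_v1g241617, -0.38 ± 0.19 (SE, adjusted p = 0.136) for TU34640 over NEMVEDRAFT_v1g240291, 0.08 ± 0.21 (SE, adjusted p = 0.819) for TU2243 over NEMVEDRAFT_v1g243980, and 0.33 ± 0.13 (SE, adjusted p = 0.0587) for NEMVEDRAFT_v1g215547 over TU29496, and the last was past the threshold without 15 °C replicate 4.

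The largest change of ratio between 20 and 15 °C was that of NEMVEDRAFT_v1g245520 over TU16941, which lie tail-to-tail (scaffold 164, NEMVEDRAFT_v1g245520 at 311687-314467 on the + strand and TU16941 at 313516-322283 on the - strand) and share 952 exon bp, 46.5% of the exon bases of NEMVEDRAFT_v1g245520. NEMVEDRAFT_v1g245520 was at 1.03, 0.323, 0.138, 1.01, and 0.695 RPKM at 15 °C, 18.5, 15.6, 6.90, 15.8, and 11.5 at 20 °C, and 15.2, 15.7, 18.1, 14.6, and 16.3 at 25 °C. TU16941 was at 6.48, 6.27, 5.72, 4.49, and 6.499 RPKM at 15 °C, 6.06, 6.95, 5.74, 5.71, and 5.65 at 20 °C, and 4.89, 4.74, 5.19, 4.82, and 5.45 at 25 °C. All libraries of NEMVEDRAFT_v1g245520 at 20 and 25 °C were above all at 15 °C, where it had as few as 1 count in a library. TU16941 ranged from 4.49 to 6.95 RPKM and was called lower at 25 than at 15 °C, with a log2 fold change of -0.30 ± 0.09 (SE, adjusted p = 0.0186), although these ranges overlapped. Its 25 °C libraries were all below those at 20 °C. NEMVEDRAFT_v1g245520 was the lower gene in every library at 15 °C and the higher gene in every library at 20 and 25 °C. The ratio changed by 4.21 ± 0.31 (SE, adjusted p = 1.67e-08) between 20 and 15 °C. The second, TU34622 over TU34775, changed by 2.83 ± 0.27 (SE, adjusted p = 3.76e-07).

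Between 25 and 20 °C, TU8936 over TU9061 changed most. The genes lie tail-to-tail (scaffold 13, TU8936 at 1099293-1117000 on the + strand and TU9061 at 1115704-1118548 on the - strand) and share 881 exon bp, 61.2% of the exon bases of TU9061. TU8936 was at 14.4, 14.3, 13.1, 13.1, and 12.6 RPKM at 15 °C, 16.2, 14.9, 16.5, 18.1, and 17.6 at 20 °C, and 17.3, 14.4, 15.9, 15.7, and 20.3 at 25 °C. TU9061 was at 153, 74.7, 125, 82.0, and 98.5 RPKM at 15 °C, 138, 145, 119.8, 134, and 176 at 20 °C, and 54.2, 32.8, 39.4, 38.5, and 43.2 at 25 °C. TU9061 was lower in every 25 °C library than in every other library, while TU8936 overlapped between 20 and 25 °C. The ratio changed by 1.78 ± 0.18 (SE, adjusted p = 7.32e-06), with a log2 fold change of -1.78 ± 0.18 (SE, adjusted p = 1.71e-05) for TU9061 and -0.01 ± 0.09 (SE, adjusted p = 0.981) for TU8936. NEMVEDRAFT_v1g239698 and TU20138 lie tail-to-tail (scaffold 18, NEMVEDRAFT_v1g239698 at 1061200-1068721 on the + strand and TU20138 at 1062930-1095320 on the - strand) with 1122 shared exon bp. NEMVEDRAFT_v1g239698 was at 136, 128, 110.3, 77.2, and 147 RPKM at 15 °C, 45.03, 22.5, 16.0, 10.9, and 22.3 at 20 °C, and 7.45, 7.24, 6.86, 9.17, and 10.4 at 25 °C. TU20138 was at 4.07, 3.88, 2.71, 2.51, and 3.47 RPKM at 15 °C, 3.62, 4.58, 3.503, 3.70, and 3.75 at 20 °C, and 3.14, 3.80, 4.41, 3.88, and 4.23 at 25 °C. NEMVEDRAFT_v1g239698 fell at each step without overlap between temperatures, with -2.43 ± 0.27 (SE, adjusted p = 1.58e-05) between 20 and 15 °C and -1.501 ± 0.27 (SE, adjusted p = 0.00612) between 25 and 20 °C, and TU20138 overlapped throughout. The ratio changed by -1.38 ± 0.27 (SE, adjusted p = 0.00599) between 25 and 20 °C and by -4.07 ± 0.27 (SE, adjusted p = 3.47e-09) between 25 and 15 °C.

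The 2 pairs that share the most exon bases both lie tail-to-tail. TU70655 and TU70681 share 3922 exon bp, 97.7% of the exon bases of TU70681 (scaffold 72, TU70655 at 88626-112408 on the + strand and TU70681 at 103911-113455 on the - strand). TU70655 was at 3.43 ± 0.337 RPKM at 25 °C, against 4.45 ± 0.930 RPKM at 15 °C (SD, n = 5 each). TU70681 was at 1.19 ± 0.205 RPKM at 25 °C, against 1.99 ± 0.663 RPKM at 15 °C. Both were called lower at 25 °C, with log2 fold changes of -0.45 ± 0.11 (SE, adjusted p = 0.00422) and -0.83 ± 0.20 (SE, adjusted p = 0.00338), and the ranges of the 5 libraries overlapped. TU70276 and TU70296 share 3258 exon bp, 77.2% of those of TU70296. TU70296 was at 2.64, 2.14, 2.49, 1.68, and 2.21 RPKM at 15 °C, 1.96, 1.75, 1.83, 1.95, and 1.72 at 20 °C, and 1.198, 1.25, 1.37, 1.05, and 1.21 at 25 °C. TU70276 was at 8.84, 8.36, 6.12, 6.60, and 8.51 RPKM at 15 °C, 9.51, 11.3, 8.80, 11.6, and 9.71 at 20 °C, and 8.29, 9.83, 10.1, 8.28, and 8.41 at 25 °C. TU70296 was lower in every 25 °C library than in any other library, with -0.93 ± 0.12 (SE, adjusted p = 1.55e-05) between 25 and 15 °C, and TU70276 gave 0.15 ± 0.10 (SE, adjusted p = 0.281).

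Whether the genes of a pair varied together between libraries of the same temperature was measured by Pearson's r over the 15 libraries, after each gene's mean at each temperature had been subtracted from its log2 CPM (counts scaled to the library total). The median r of the 702 pairs was 0.05, and r was above 0 in 379. The medians were 0.03 in neighbours on opposite strands, 0.11 in neighbours on the same strand, and 0.31 in same-strand overlaps. Points of this kind share the library and its depth, and no test was made over pairs. By the permutation test within temperatures, 4 pairs had an r above 0 past the threshold (0.570% of pairs, beside 2.07% of all 12797 pairs), and 2 had an r below 0 (0.285%, beside 0.219%). The 12797 pairs include same-strand pairs. Shares above and below 0 were 0.679% and 0.275% in opposite-strand neighbours, and 3.37% and 0.125% in same-strand neighbours. The counts of 4 and 2 were between 1 and 5 and between 0 and 2 when a library was left out. The 4 became 1 without 15 °C replicate 4 or 20 °C replicate 4, and 2 without 15 °C replicate 2, 3, or 5, 20 °C replicate 1, 2, or 3, or 25 °C replicate 1. The 2 became 0 without 15 °C replicate 4 or 5, 20 °C replicate 1, or 25 °C replicate 1 or 4, and 1 without 15 °C replicate 2 or 3, 20 °C replicate 4 or 5, or 25 °C replicate 2. With gene A read from run L1 and gene B from run L2, no pair passed the threshold in either direction.

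TU31203 and TU31291, tail-to-tail with 1024 bp of shared 3′ UTR, had the highest r, 0.88 (permutation p = 0.00032, adjusted p = 0.0242). Spearman's rho was 0.91 (permutation p = 6e-05). Leaving out 15 °C replicate 2 and 20 °C replicate 2, which lay farthest from the median of TU31203, gave an r of 0.81 (permutation p = 0.0106). TU31203 was at 6.68, 7.24, 4.95, 5.00, and 6.69 RPKM at 15 °C, 5.69, 7.08, 5.92, 5.53, and 5.48 at 20 °C, and 4.80, 5.80, 6.11, 4.94, and 5.50 at 25 °C. TU31291 was at 9.46, 10.49, 6.41, 6.98, and 8.78 RPKM at 15 °C, 9.46, 11.8, 8.91, 9.25, and 10.4 at 20 °C, and 8.68, 11.8, 12.8, 9.45, and 11.6 at 25 °C. Both genes were lowest at 15 °C in replicates 3 and 4 and highest in replicate 2. The call was lost without any 1 of 7 libraries (15 °C replicates 2, 3, and 4, 20 °C replicates 1, 2, and 4, and 25 °C replicate 5).

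The tail-to-tail pair TU74063 and TU74132, which share 2086 exon bp, had an r of 0.81 (permutation p = 0.00078, adjusted p = 0.0395; rho = 0.81, permutation p = 0.00292), and 0.86 without the 2 farthest libraries (permutation p = 0.00252). TU74063 was at 53.0, 69.2, 44.6, 35.3, and 59.9 RPKM at 15 °C, 40.3, 62.5, 56.4, 55.9, and 56.1 at 20 °C, and 55.9, 54.6, 57.4, 47.1, and 61.7 at 25 °C. TU74132 was at 2.97, 4.49, 2.56, 2.32, and 3.46 RPKM at 15 °C, 3.17, 3.93, 3.28, 3.42, and 3.07 at 20 °C, and 3.37, 3.71, 3.25, 3.10, and 3.55 at 25 °C. Here too, replicates 3 and 4 were the lowest at 15 °C and replicate 2 the highest. The call of this pair was lost without any of the 15 °C libraries, 20 °C replicates 1, 3, and 4, or 25 °C replicates 1 and 4. The head-to-head pair TU55269 and TU55234, sharing 68 exon bp, had an r of 0.78 (permutation p = 0.00023, adjusted p = 0.0210; rho = 0.87, permutation p = 0.0004), and 0.73 without the 2 farthest libraries (permutation p = 0.0012). TU55269 was at 3.28, 3.22, 3.28, 2.45, and 3.10 RPKM at 15 °C, 2.59, 2.5002, 2.26, 2.27, and 2.26 at 20 °C, and 1.68, 2.24, 2.83, 2.38, and 2.27 at 25 °C. TU55234 was at 10.3, 10.1, 9.68, 8.12, and 9.19 RPKM at 15 °C, 9.06, 7.602, 6.89, 6.31, and 6.88 at 20 °C, and 5.83, 7.33, 7.63, 7.57, and 7.21 at 25 °C. Replicate 4 at 15 °C and replicate 1 at 25 °C were the lowest of their temperature in both genes, and without 25 °C replicate 1 the call was lost. The other pair past the threshold, TU46621 and NEMVEDRAFT_v1g70739, was outside the rule for naming pairs and was picked out after its values were seen. All 648 exon bp of NEMVEDRAFT_v1g70739 lie in exons of TU46621, 646 bp of them coding on both strands. TU46621 averaged 3.88 RPKM and NEMVEDRAFT_v1g70739 averaged 1.99 RPKM, with an r of 0.83 (permutation p = 0.00042, adjusted p = 0.0294). The mean counts per library were 588 for TU46621 and only 13.8 for NEMVEDRAFT_v1g70739. For this pair r is not given under other settings.

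The 2 pairs with an r below 0 lie head-to-head. TU2151 and NEMVEDRAFT_v1g12130 had an r of -0.82 (permutation p = 0.00052, adjusted p = 0.0320; rho = -0.83, permutation p = 0.00144), and -0.82 without the 2 farthest libraries (permutation p = 0.00364). TU2151 was at 0.502, 0.532, 0.342, 0.296, and 0.513 RPKM at 15 °C, 0.357, 0.608, 0.398, 0.436, and 0.490 at 20 °C, and 0.443, 0.476, 0.570, 0.373, and 0.536 at 25 °C. NEMVEDRAFT_v1g12130 was at 305, 292, 318, 368, and 312 RPKM at 15 °C, 361, 271, 316, 345, and 303 at 20 °C, and 309, 269, 304, 334, and 314 at 25 °C. Replicate 4 at 15 °C was the lowest of its temperature in TU2151 and the highest in NEMVEDRAFT_v1g12130. The call was lost without 15 °C replicates 2, 3, 4, or 5, 20 °C replicates 1, 2, 3, or 5, or 25 °C replicates 1 or 4. NEMVEDRAFT_v1g160874 and TU16110 had an r of -0.81 (permutation p = 0.00055, adjusted p = 0.0333; rho = -0.76, permutation p = 0.00028), and -0.61 without the 2 farthest libraries (permutation p = 0.0267). NEMVEDRAFT_v1g160874 was at 20.2, 15.6, 14.8, 16.5, and 17.8 RPKM at 15 °C, 16.2, 18.3, 16.6, 18.7, and 17.2 at 20 °C, and 17.8, 15.8, 16.9, 15.9, and 19.4 at 25 °C. TU16110 was at 11.6, 11.9, 9.57, 8.99, and 10.9 RPKM at 15 °C, 10.1, 9.02, 7.42, 7.76, and 7.91 at 20 °C, and 7.13, 8.06, 7.87, 8.43, and 8.29 at 25 °C. The call was lost without 15 °C replicates 2, 3, 4, or 5, 20 °C replicates 1 or 4, or 25 °C replicates 1, 2, 3, or 4. The genes lie over each other by 92 bp, and no gene of either pair but TU16110 was called between 25 and 15 °C, with -0.49 ± 0.08 (SE, adjusted p = 0.000168).

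Libraries also differed in the level of long against short genes, which moved with some of these correlations. A length index was taken for each library as the median log2 CPM of the 1797 tested genes with at least 4000 exon bp minus that of the 6877 with at most 1000 bp. It ran from 2.76 to 3.09 and was lowest, within its temperature, in 15 °C replicate 4, 20 °C replicate 1, and 25 °C replicate 1. By temperature it ran from 2.85 to 3.09 at 15 °C, 2.79 to 2.99 at 20 °C, and 2.76 to 2.95 at 25 °C. The index was not taken out of the fold changes or changes of ratio between temperatures. Its within-temperature r was 0.83 with TU31203 (9445 exon bp) and 0.87 with TU31291 (6943 bp). It was 0.80 with TU74063 and 0.65 with TU74132, and 0.90 with TU2151 (11605 bp) and -0.82 with NEMVEDRAFT_v1g12130 (1182 bp). With the index removed as well, an alternative chosen after seeing the data, r fell to 0.57 for TU31203 and TU31291 (permutation p = 0.0355, adjusted p = 0.336). It was 0.64 for TU74063 and TU74132 (permutation p = 0.0155, adjusted p = 0.250) and -0.32 for TU2151 and NEMVEDRAFT_v1g12130 (permutation p = 0.287, adjusted p = 0.697). For TU55269 and TU55234 the index had an r of 0.34 and 0.01 with the genes, and r without it was 0.82 (permutation p = 3e-05, adjusted p = 0.0107). For NEMVEDRAFT_v1g160874 and TU16110 the index had an r of 0.01 and 0.16, and r without it was -0.82 (permutation p = 0.00032, adjusted p = 0.0320). In the tests with the index removed, the permutation does not keep the index term, which limits their p-values.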

How the data were processed

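RNA-seq counts of 15 libraries (5 each at 15, 20, and 25 °C) were used. Per the submitters' processing notes and the study's methods, the authors trimmed reads with Trimmomatic 0.38, aligned them with HISAT2 2.1.0, assembled transcripts with StringTie 2.0, and counted reads per gene with featureCounts at default settings, which ignore strand and leave out reads shared by genes; the strandedness option is named for alignment only. The counts of genes inside opposite-strand exons were set against this. The deposited values are raw counts in 2 columns per library, L1 and L2. The labels do not define these columns, which were taken as 2 runs of the same library and added up. The genome build is known here only by its scaffold names. No gene identifier (0) matched the RefSeq table of another assembly, so genes have no names and tissue markers could not be checked.

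Pairs and their layout were read from the deposited gene models. A neighbour is the next model along the scaffold, with none between. RPKM was computed from exon length and the library total. Genes passing filterByExpr (17818) were fitted with edgeR 4.0.16 (R 4.3.3; TMM, robust quasi-likelihood test, all 15 libraries, temperature as the only term), with Benjamini-Hochberg adjustment over all genes. SE is the absolute log2 fold change divided by the square root of F. A pair's change of ratio was tested in edgeR with 1 row per pair and 2 columns per library. Within-temperature r was tested with 100000 permutations within temperatures, the smallest possible p being 1e-05. Both were adjusted over all 12797 overlapping and neighbouring pairs, at a threshold of 0.05. DESeq2 1.42.0 was an alternative. The steps were tested on simulated data.

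Pairs were named where both genes passed the filter at a mean log2 CPM of at least 2. The rule took the 5 pairs with the largest smaller change in opposite directions between 25 and 15 °C, and 5 in the same direction with at most 3 per direction. It took the 2 largest called changes of ratio in each of the other comparisons, and the 3 highest and 3 lowest r past the threshold. It took the 3 pairs with the highest lower level and the 3 with the largest level difference among pairs with at least 10 counts in every library, and the 2 sharing the most exon bases. Without the limit on CPM, it took the 4 contained genes of highest RPKM. The members and lists were chosen with earlier results of these data known.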

Additional observations from a re-analysis of the deposited data

Results flagged for a closer look

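In groups of 5 libraries, 8 of the 126 sets of values examined had 1 library far from the other 4, a gap that chance gives in about 1 in 20 groups. The number of members with a count was 1703 in 25 °C replicate 2, against 1720 to 1726 in the others at 25 °C. TU56792 was at 9.14 RPKM in 20 °C replicate 1, against 4.81 to 5.25, and TU34640 at 25.6 RPKM in the same library, against 16.1 to 18.7. NEMVEDRAFT_v1g241617 was at 19.3 RPKM in 25 °C replicate 2, against 13.0 to 14.5. In 20 °C replicate 2, TU20138 was at 4.58 RPKM, against 3.503 to 3.75, and TU31203 at 7.08 RPKM, against 5.48 to 5.92. TU55269 was at 2.45 RPKM in 15 °C replicate 4, against 3.10 to 3.28. TU55234 was at 5.83 RPKM in 25 °C replicate 1, against 7.21 to 7.63.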

How the results depend on the processing

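Of 1072 alternative values of named genes and pairs, 984 kept direction and side of the threshold, 63 lost the call, 7 gained it, 17 changed sign, and 1 moved by more than its spread. Where calls also needed a log2 fold change of 1 or more in size, the genes called were 82 (25 against 15 °C), 56 (20 against 15 °C), and 9 (25 against 20 °C). The pairs called together were then 3, 4, and 0, and those in opposite directions 2 (25 against 15 °C) and 0 (20 against 15 °C). Run L1 alone gave 25 pairs together between 25 and 15 °C. Run L2 alone gave 23 pairs together and 24 in opposite directions (25 against 15 °C). It gave 10 and 5 for 20 against 15 °C, and changed ratios in 148, 92, and 9 pairs. Opposite pairs between 20 and 15 °C were 6 with only the 10 libraries compared and 6 with exons shared. With overlaps of at least 100 bp, 0 pairs were together between 25 and 20 °C.

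Pairs with r above 0 were 2 by Spearman's rho and 0 between runs. Those with r below 0 were 0 with upper-quartile normalisation, 1 with at least 10 counts in every library, 1 by Spearman's rho, 0 between runs, 1 with overlaps of at least 100 bp, and 1 with exons shared. The level difference was 1.35 with a pseudocount of 1, 2.61 over all pairs, 1.89 from CPM, 1.52 with overlaps of at least 100 bp, and 1.47 with exons shared. Of the pairs, 722 share exons, and 540 have both genes at a mean log2 CPM of at least 2. The causes were not tested.

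Leaving out each library gave 434 to 588, 255 to 374, and 28 to 70 genes called (25 against 15, 20 against 15, and 25 against 20 °C). Pairs together were 25 to 45, 16 to 33, and 1 to 1, and in opposite directions 32 to 56, 7 to 17, and 0 to 0. Changed ratios were 203 to 259, 124 to 157, and 9 to 27. Pairs with r above 0 were 1 to 5 and below 0 were 0 to 2.

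The replicate numbers were not taken to pair the libraries. Same-numbered libraries had deviations correlated from -0.089 to 0.286, 6 of 15 over 0.1, and 4 of 15 libraries correlated best with their own number. The mean was 0.089 for same-numbered libraries and -0.022 for libraries of different numbers. Whether same-numbered libraries shared a culture or batch was not tested. With a replicate block, 554, 336, and 56 genes were called, 43, 26, and 1 pairs together, 45, 15, and 0 in opposite directions, and 255, 160, and 23 with a changed ratio. With a replicate block, 19 pairs had an r above 0 and 14 below 0, but the permutation does not keep the replicate term.

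The sign changed in values near 0. The ratio of TU2243 over NEMVEDRAFT_v1g243980 (25 against 15 °C) was -0.10 from run L2 and -0.040 to 0.23 with a library left out. TU16941 (20 against 15 °C) was at 0.010 from run L1. TU8936 (25 against 20 °C) was at 0.015 with upper-quartile normalisation, 0.0038 with no filter, 0.0068 with only the 10 libraries compared, 0.015 from run L1, and -0.062 to 0.027 with a library left out. TU20138 (25 against 20 °C) was at -0.024 from run L2 and -0.036 to 0.076 with a library left out. Counts from exon bases outside the overlap could not be computed from gene totals. Depth limits genes at a few counts: a count of 0 allows up to 0.135 to 0.851 CPM, depending on the library.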
